A study of Macaca fascicularis with 6 samples.

Results

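The genes described here encode the nuclear pore, the carriers that move cargo through it and the lamina beneath the nuclear envelope. They are the rows of the deposited gene table whose name begins with NUP, IPO, XPO or TNPO followed by a digit, or with KPNA, KPNB or LMN. The rule took 49 of the 28164 genes in the table, lying on 19 chromosomes of the macFas5 build, and 46 of them held enough counts to be tested. Poly(A)-primed RNA was sequenced from stripped oocytes of the cynomolgus monkey (Macaca fascicularis), all wild type and without treatment. There were 3 groups of 2 libraries each: metaphase II oocytes matured in vitro (IVM MII), metaphase II oocytes matured in vivo (IVO MII), and immature oocytes at the germinal vesicle stage (GV). How many oocytes or animals stood behind a library is not given in the sources used here, so p-values measure the spread between these libraries, which may be technical. The study set in vitro against in vivo matured oocytes, with GV oocytes as the immature stage.

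The nuclear pore complex is a ring of many copies of a set of proteins, the nucleoporins, in the nuclear envelope. Its Y complexes and inner ring form the scaffold, those with phenylalanine-glycine repeats fill the channel, and filaments reach into the cytoplasm and a basket into the nucleus. Importins and exportins carry proteins and some RNAs across under the control of the GTPase Ran, and importin alpha is the adapter that reads the classical import signal for importin beta. GV oocytes have a large intact nucleus. When meiosis resumes its envelope breaks down, the pores come apart and the lamina is taken down, so that a metaphase II oocyte holds these proteins and mRNAs as a maternal store for the pronuclei that form after fertilisation. Importins bound to spindle factors, and their release by Ran, also take part in meiotic spindle assembly.

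Libraries held 27707021 to 35515139 assigned fragments. Values below are CPM (counts per 1000000 assigned fragments, after TMM scaling), or CPM per kilobase of exon where genes are compared with each other. The oocyte genes GDF9, ZP2, ZP3 and BMP15 were at 1144 to 14229 CPM in every library, and DAZL, DDX4 and ZP1 at 30.3 to 591 CPM. Other oocyte genes were lower in MII. NLRP5 was at 41.8 to 86.7 CPM in MII and 435 and 575 CPM in GV. ZAR1 was at 14.0 to 17.5 CPM in MII and 79.1 and 75.0 CPM in GV. FIGLA was at 3.63 to 11.3 CPM in MII and 71.6 and 109 CPM in GV. Correlations of log CPM were 0.975 to 0.982 within a group and 0.847 to 0.936 between groups. The 49 genes took 1.30% and 1.14% of assigned fragments in IVM MII, 1.27% and 1.50% in IVO MII and 0.961% and 1.10% in GV oocytes. Each value is a share of the RNA captured from a library. Fewer cells and less RNA per cell cannot be told apart here, nor can a lower amount of an mRNA and a poly(A) tail that primes less well.

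Most of the pore and carrier genes that differed between MII and GV oocytes were higher in MII. A gene is said to differ where edgeR's quasi-likelihood test gave a Benjamini-Hochberg adjusted p under 0.05 over the 15815 genes tested. In IVM MII against GV, 16 of the 46 tested genes were higher, when 25.6% of all tested genes were, and 5 were lower, when 24.7% of all were. The remaining 25 did not pass the test. In IVO MII against GV, 22 were higher and 5 lower, beside 28.1% and 30.5% of all genes, and 19 did not pass. The median log2 fold change of the 46 was 0.45 in IVM MII and 0.74 in IVO MII, against 0.06 and -0.07 over all tested genes. A number in parentheses beside a left-out library or another setting is the log2 fold change under that condition. Both comparisons use the same GV libraries, so their values stand side by side without a test between them. The direct comparison of IVM MII with IVO MII is the test of how the MII groups differ. There, 4 of the 46 were higher, beside 14.3% of all genes, 7 were lower, beside 10.3%, and 35 did not pass.

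**Figure D1:**
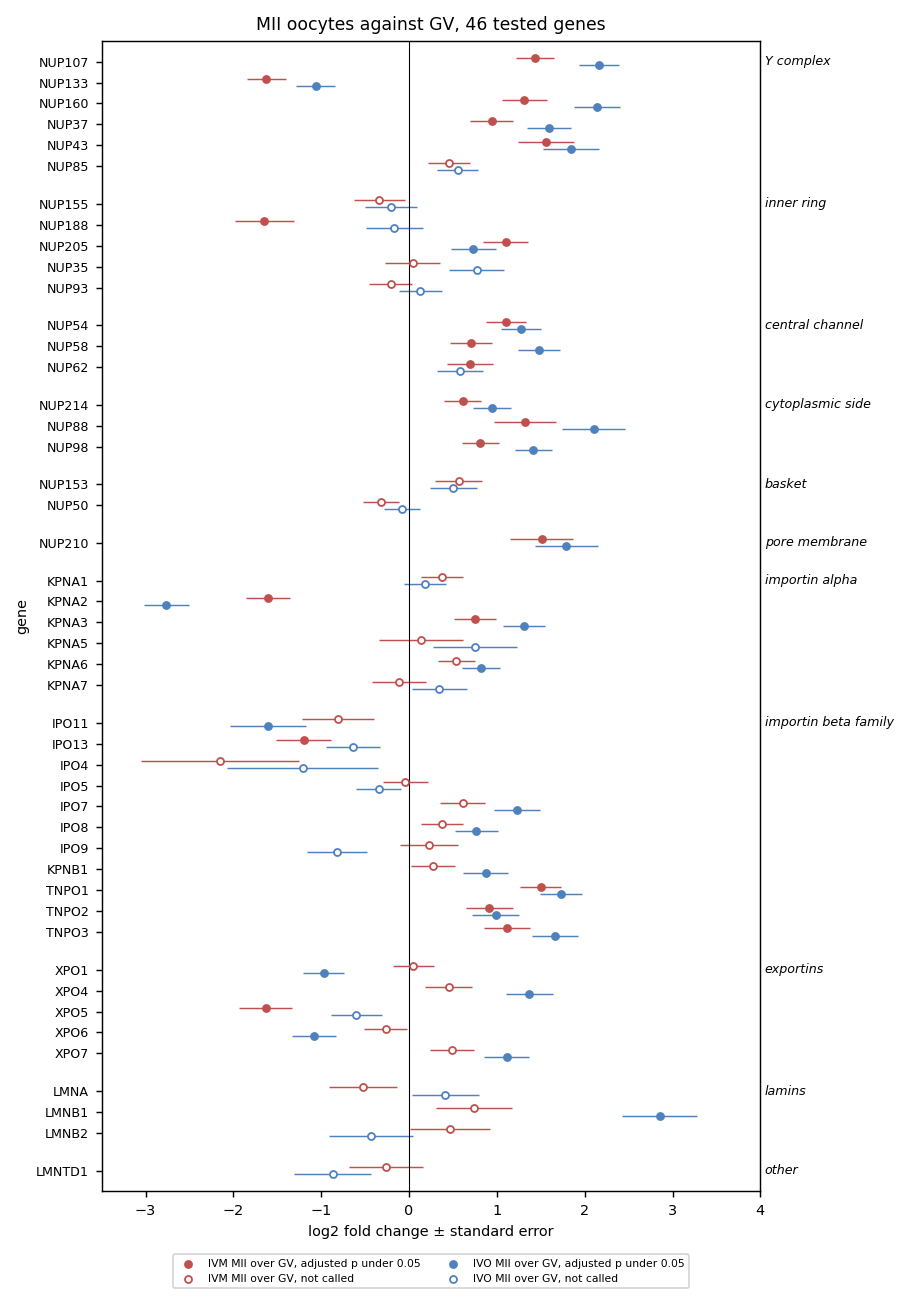
Log2 fold changes with standard errors (x axis) of the 46 tested genes (y axis, grouped by role) in IVM MII and IVO MII against GV oocytes, with filled points for adjusted p under 0.05. Most filled points lie to the right of 0, and KPNA2, NUP133 and XPO5 are among those to the left.

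In the Y complex, the main scaffold of the outer rings, 4 of the 6 genes were higher in both MII groups than in GV. Another was lower in both, and 1 did not pass. Of all tested genes, 18.7% were higher in both MII groups and 19.5% lower in both. NUP107, a core subunit (macFas5 chromosome 11, 67737294 to 67793699, plus strand), had 79.2 and 70.4 CPM in IVM MII, 134 and 114 CPM in IVO MII and 29.8 and 25.5 CPM in GV oocytes. It was 2.70-fold higher in IVM MII (log2 fold change 1.44 ± 0.22, adjusted p = 0.000316) and 4.48-fold higher in IVO MII (log2 fold change 2.16 ± 0.22, adjusted p = 1.54e-05). The GV libraries were lowest and the IVO MII libraries highest, and no groups overlapped. IVM MII lay 1.66-fold below IVO MII (log2 fold change -0.73 ± 0.22, adjusted p = 0.0286). NUP160, another large subunit of the complex, had 43.6 and 40.8 CPM in IVM MII, 85.6 and 64.1 CPM in IVO MII and 20.1 and 13.9 CPM in GV oocytes, with the same order of groups and no overlap. Its log2 fold change was 1.31 ± 0.25 in IVM MII (adjusted p = 0.00135) and 2.14 ± 0.26 in IVO MII (adjusted p = 4.31e-05). Here IVM MII was lower than IVO MII (log2 fold change -0.83 ± 0.25, adjusted p = 0.0311). Neither of these IVM MII to IVO MII differences passed with IVM MII library 1, IVM MII library 2 or IVO MII library 1 left out, at -0.79, -0.64 and -0.61 for NUP107 and -0.84, -0.78 and -0.60 for NUP160.

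The small propeller subunits of the Y complex, NUP37 and NUP43, were also higher in MII. NUP37 had 366 and 487 CPM in IVM MII, 736 and 600.2 CPM in IVO MII and 236 and 207 CPM in GV oocytes. The log2 fold change of NUP37 was 0.94 ± 0.24 in IVM MII (adjusted p = 0.00757) and 1.59 ± 0.25 in IVO MII (adjusted p = 0.000224). Every MII library was above both GV libraries, and both IVO MII libraries were above both IVM MII libraries, although the MII groups did not pass the test against each other (adjusted p = 0.0715). The IVM MII call of NUP37 ended without GV library 2 (0.86) and without IVM MII library 2 (0.74). NUP43 had 13.1 and 15.4 CPM in IVM MII, 21.8 and 12.9 CPM in IVO MII and 5.62 and 4.02 CPM in GV oocytes. For NUP43 the log2 fold change was 1.56 ± 0.32 in IVM MII (adjusted p = 0.00178) and 1.84 ± 0.32 in IVO MII (adjusted p = 0.000429). Its MII libraries overlapped each other and lay above GV. NUP85, which joins the short arm to the stem, did not pass in any comparison and had 494 and 531 CPM in IVM MII, 486 and 612 CPM in IVO MII and 337 and 410.4 CPM in GV oocytes.

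NUP133 went the other way from its Y complex partners. This subunit sits at the end of the stem and binds curved membrane (macFas5 chromosome 1, 20075002 to 20144995, plus strand). It had 52.3 and 53.8 CPM in IVM MII, 86.6 and 70.2 CPM in IVO MII and 177 and 150.1 CPM in GV oocytes. That is a 3.09-fold lower level in IVM MII (log2 fold change -1.63 ± 0.22, adjusted p = 0.00015) and a 2.09-fold lower one in IVO MII (log2 fold change -1.06 ± 0.22, adjusted p = 0.00143). Both GV libraries were above all MII libraries, and the IVM MII libraries were the lowest. IVM MII and IVO MII did not pass against each other (log2 fold change -0.56 ± 0.22, adjusted p = 0.0788). Per kilobase, NUP133 stood at 12 and 12.3 CPM per kilobase in IVM MII, 19.8 and 16.1 in IVO MII and 40.7 and 34.4 in GV oocytes. Its partner NUP107 stood at 22.4 and 19.9 CPM per kilobase in IVM MII, 37.8 and 32.2 in IVO MII and 8.42 and 7.21 in GV oocytes. In GV oocytes the NUP133 level per kilobase was thus the higher one, and in both MII groups that of NUP107.

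Of the 5 inner ring genes, which make the scaffold around the channel, NUP205 was higher in MII and NUP188, its large paralogue, was lower in IVM MII. NUP205 had 56.6 and 56.1 CPM in IVM MII, 54.1 and 33.1 CPM in IVO MII and 28.4 and 24.1 CPM in GV oocytes. NUP205 had a log2 fold change of 1.10 ± 0.26 in IVM MII (adjusted p = 0.00433) and 0.73 ± 0.26 in IVO MII (adjusted p = 0.0286). The GV libraries were lowest, and IVO MII library 2 lay nearest to them. The IVO MII call ended without GV library 2 (0.62) and without IVO MII library 1 (0.35). NUP188 had 3.84 and 3.67 CPM in IVM MII, 13.8 and 7.20 CPM in IVO MII and 13.4 and 10.1 CPM in GV oocytes. Both IVM MII libraries were below all others, while IVO MII and GV overlapped. NUP188 fell 3.13-fold in IVM MII against GV (log2 fold change -1.65 ± 0.34, adjusted p = 0.00196) and lay 2.79-fold below IVO MII (log2 fold change -1.48 ± 0.34, adjusted p = 0.00853), whereas IVO MII against GV gave -0.17 ± 0.33 (adjusted p = 0.683). The difference from IVO MII did not pass without IVM MII library 1 (-1.49), IVM MII library 2 (-1.44) or IVO MII library 1 (-0.94). NUP93, the linker that holds the channel genes to the scaffold, NUP155, which contacts the membrane, and NUP35, a small membrane-binding subunit, did not pass in any comparison. Over the 6 libraries NUP93 ranged over 60.2 to 102 CPM and NUP155 over 19.8 to 37.5 CPM. NUP35 is the most abundant scaffold gene, at 419.6 and 686 CPM per kilobase in IVM MII, 1102 and 727 in IVO MII and 606 and 467 in GV oocytes.

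The channel itself is lined by the NUP62, NUP54 and NUP58 trimer, whose repeats form the barrier. All 3 genes were higher than in GV in IVM MII, beside 25.6% of all tested genes. NUP54 had 523 and 573 CPM in IVM MII, 662 and 573 CPM in IVO MII and 276 and 235 CPM in GV oocytes. The log2 fold change of NUP54 was 1.10 ± 0.23 in IVM MII (adjusted p = 0.00219) and 1.27 ± 0.23 in IVO MII (adjusted p = 0.000622). The MII libraries were all above GV and close to each other. NUP58 had 119.9 and 124 CPM in IVM MII, 219 and 197 CPM in IVO MII and 88.8 and 60.7 CPM in GV oocytes, with no overlap between any groups. It was 2.78-fold higher in IVO MII (log2 fold change 1.48 ± 0.24, adjusted p = 0.000281) and 1.63-fold higher in IVM MII (log2 fold change 0.70 ± 0.24, adjusted p = 0.026). Here IVM MII was below IVO MII (log2 fold change -0.77 ± 0.23, adjusted p = 0.0326). NUP62 had 45.5 and 28.9 CPM in IVM MII, 30.8 and 38.2 CPM in IVO MII and 21.5 and 24.6 CPM in GV oocytes. That gives a log2 fold change of 0.69 ± 0.26 in IVM MII (adjusted p = 0.0436) and of 0.58 ± 0.26 in IVO MII (adjusted p = 0.0732). The MII libraries overlapped each other and were above GV. With the library number kept as a replicate block, the NUP62 call ended at 0.69.

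The IVM MII calls of NUP58 and NUP62 ended with 1 library or another left out, and that of NUP54 did not. The NUP58 call against GV ended without GV library 2 (0.46), IVM MII library 1 (0.76) or IVM MII library 2 (0.70). Its call against IVO MII ended without IVM MII library 1 (-0.72), IVM MII library 2 (-0.79) or IVO MII library 1 (-0.70). That of NUP62 ended without GV library 1 (0.60), GV library 2 (0.80) or IVM MII library 1 (0.37). NUP62CL, a relative of NUP62 named for its C terminus, was too low to be tested, with counts of 0 and 0 in IVM MII, 1 and 7 in IVO MII and 6 and 1 in GV oocytes.

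All 3 genes assigned to the cytoplasmic side were higher in both MII groups than in GV, beside 18.7% of all tested genes. NUP98, a repeat-bearing barrier protein that also binds the mRNA export factor RAE1, had 70.7 and 65.6 CPM in IVM MII, 101 and 106 CPM in IVO MII and 41.3 and 36.4 CPM in GV oocytes. Its log2 fold change was 0.81 ± 0.21 in IVM MII (adjusted p = 0.00697) and 1.41 ± 0.21 in IVO MII (adjusted p = 0.000162). The groups did not overlap, with GV lowest and IVO MII highest. NUP88, which anchors the cytoplasmic filaments, had 563 and 367 CPM in IVM MII, 562 and 1042 CPM in IVO MII and 140.2 and 232 CPM in GV oocytes. It was 2.49-fold higher in IVM MII (log2 fold change 1.32 ± 0.35, adjusted p = 0.00846) and 4.30-fold higher in IVO MII (log2 fold change 2.11 ± 0.36, adjusted p = 0.000397). Its libraries spread widely within each group, yet every MII library was above both GV libraries. NUP214, the filament protein at which mRNA export complexes are released, had 46.4 and 41.2 CPM in IVM MII, 58 and 52.5 CPM in IVO MII and 28.4 and 28.9 CPM in GV oocytes, with all MII libraries above GV. Its log2 fold change was 0.61 ± 0.21 in IVM MII (adjusted p = 0.0308) and 0.95 ± 0.21 in IVO MII (adjusted p = 0.00248).

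In IVM MII the calls of this side ended with 1 library left out. For NUP98 this was GV library 2 (0.73), and for NUP88 it was GV library 1 (1.01) or IVM MII library 1 (1.02). For NUP214 it was any GV or IVM MII library, with values of 0.60 and 0.63 without GV libraries 1 and 2 and 0.56 and 0.71 without IVM MII libraries 1 and 2. The basket genes did not pass in any comparison. NUP153, which binds importins and the lamina, had 276 and 299.8 CPM in IVM MII, 312 and 239.7 CPM in IVO MII and 240.5 and 148 CPM in GV oocytes. NUP50, which helps to take importin alpha from its cargo, had 44.1 and 45.2 CPM in IVM MII, 53.5 and 51.3 CPM in IVO MII and 55.8 and 55.3 CPM in GV oocytes. NUP210, a transmembrane protein of the pore with a large lumenal part, was low throughout and had 4.86 and 3.35 CPM in IVM MII, 4.99 and 5.03 CPM in IVO MII and 1.63 and 1.25 CPM in GV oocytes. All MII libraries of NUP210 were above GV. The log2 fold change of NUP210 was 1.51 ± 0.36 in IVM MII (adjusted p = 0.00442) and 1.79 ± 0.36 in IVO MII (adjusted p = 0.00118).

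Importin alpha carried both the most abundant gene of all 49 and the one that fell furthest in IVO MII. KPNA7, the importin alpha known from oocytes and early embryos of mouse, cattle and pig (macFas5 chromosome 3, 43426053 to 43473763, minus strand), had 5409 and 5146 CPM in IVM MII, 6360.1 and 8177 CPM in IVO MII and 4429 and 7011 CPM in GV oocytes. It took 0.658% and 0.535% of all assigned fragments in IVM MII, 0.594% and 0.820% in IVO MII and 0.414% and 0.633% in GV oocytes. By CPM per kilobase it ranked 13 and 23 among all genes in the IVM MII libraries, 20 and 12 in IVO MII and 43 and 26 in GV. Its GV libraries differed from each other more than the groups did. It did not pass in IVM MII (log2 fold change -0.12 ± 0.31, adjusted p = 0.772), in IVO MII (log2 fold change 0.35 ± 0.31, adjusted p = 0.356) or between them (log2 fold change -0.46 ± 0.31, adjusted p = 0.301).

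KPNA2, the importin alpha of dividing cells (macFas5 chromosome 16, 65247817 to 65259713, plus strand), had 601 and 737 CPM in IVM MII, 288 and 312 CPM in IVO MII and 2172 and 1899 CPM in GV oocytes. It was 3.04-fold lower in IVM MII than in GV (log2 fold change -1.61 ± 0.25, adjusted p = 0.000348) and 6.78-fold lower in IVO MII (log2 fold change -2.76 ± 0.26, adjusted p = 7.66e-06). The groups did not overlap: GV was highest, IVM MII stood between and IVO MII was lowest. The KPNA2 level was 2.23-fold higher in IVM MII than in IVO MII (log2 fold change 1.16 ± 0.25, adjusted p = 0.00587). KPNA2 passed in all 3 comparisons under every alternative that tested it. Over the summed importin alpha level per kilobase, KPNA2 made up 9.01% and 11.3% in IVM MII, 3.87% and 3.29% in IVO MII and 30.5% and 19.6% in GV oocytes. KPNA7 made up 89.7% and 87.3% in IVM MII, 94.5% and 95.4% in IVO MII and 68.7% and 80.0% in GV oocytes. The ratio of KPNA7 to KPNA2 per kilobase was 9.96 and 7.72 in IVM MII, 24.4 and 29.0 in IVO MII and 2.25 and 4.08 in GV oocytes. The libraries of each group lay apart from those of the others in both quantities.

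**Figure D2:**
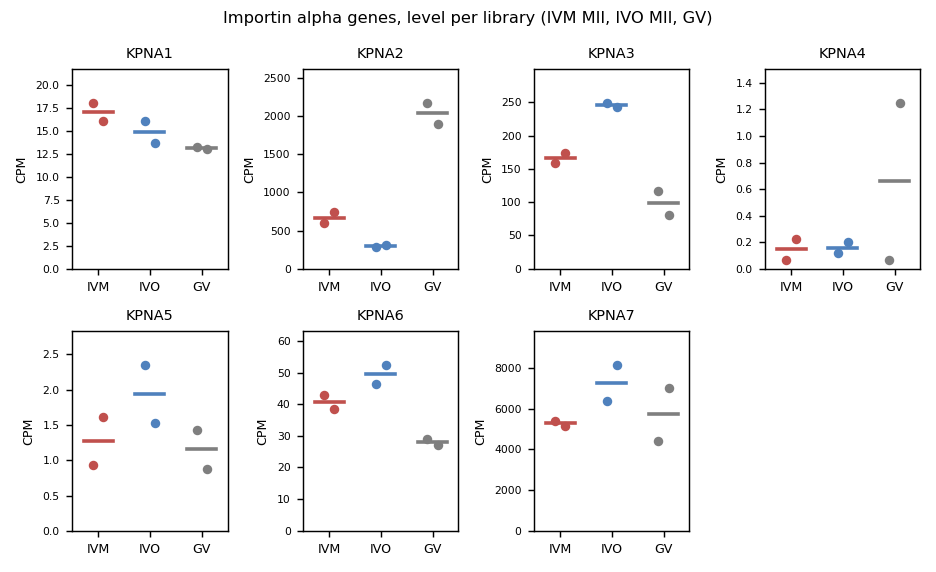
CPM (y axis, from 0, a scale of its own for each gene) of the importin alpha genes in each library of IVM MII, IVO MII and GV oocytes, with points for libraries and bars for means. KPNA2 is highest in GV and lowest in IVO MII, and the GV range of KPNA7 overlaps both MII groups.

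**Figure D3:**
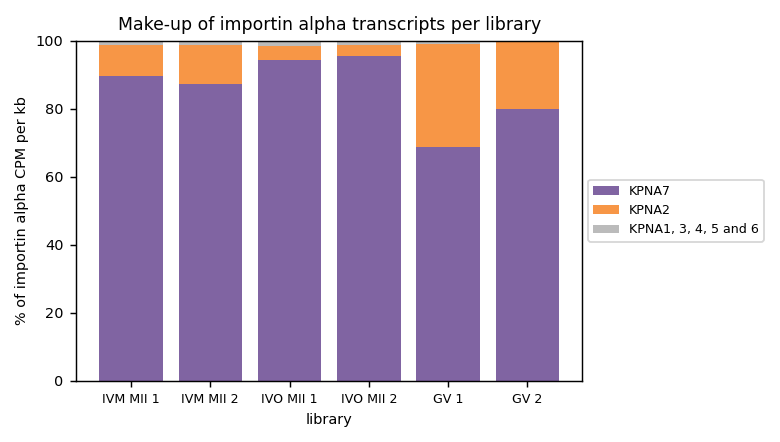
Share of the summed importin alpha CPM per kilobase (y axis, percent) taken by KPNA7, by KPNA2 and by the other importin alpha genes together in each library (x axis). KPNA7 takes 68.7% to 95.4% and KPNA2 takes 3.29% to 30.5%.

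Of the ubiquitous adapters, KPNA3 was higher in both MII groups and KPNA6 in IVO MII. KPNA3 had 159 and 173 CPM in IVM MII, 249 and 242 CPM in IVO MII and 117 and 80.6 CPM in GV oocytes, and the groups did not overlap. Its log2 fold change was 0.75 ± 0.23 in IVM MII (adjusted p = 0.0195) and 1.31 ± 0.24 in IVO MII (adjusted p = 0.000598), with the IVM MII call ending without GV library 2 (0.51) or IVM MII library 2 (0.70). KPNA6 had 42.9 and 38.4 CPM in IVM MII, 46.5 and 52.5 CPM in IVO MII and 29 and 27 CPM in GV oocytes, with every MII library above GV. It passed in IVO MII (log2 fold change 0.82 ± 0.21, adjusted p = 0.00605) and not in IVM MII (log2 fold change 0.54 ± 0.21, adjusted p = 0.053), and with the trend of fold change on exon length removed the IVO MII call ended at 0.44. KPNA1 had 18.1 and 16.1 CPM in IVM MII, 16.1 and 13.7 CPM in IVO MII and 13.2 and 13.1 CPM in GV oocytes. KPNA5 had 0.926 and 1.62 CPM in IVM MII, 2.36 and 1.53 CPM in IVO MII and 1.43 and 0.879 CPM in GV oocytes, and neither gene passed. KPNA4 was not tested, with counts of 3 and 8 in IVM MII, 3 and 6 in IVO MII and 2 and 37 in GV oocytes. A single GV library held most of them.

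The importin beta family holds the carriers that bind the pore directly. In IVM MII, 3 of its 11 genes (27.3%) were higher than in GV and 1 (9.09%) was lower, beside 25.6% and 24.7% of all tested genes. In IVO MII 6 (54.5%) were higher and 1 (9.09%) lower, beside 28.1% and 30.5%. The transportins were higher in both MII groups, as were 18.7% of all tested genes. TNPO1, the importer of many RNA-binding proteins, had 70.4 and 73.2 CPM in IVM MII, 81.5 and 86.9 CPM in IVO MII and 29.8 and 21 CPM in GV oocytes. It was 2.83-fold higher in IVM MII (log2 fold change 1.50 ± 0.23, adjusted p = 0.000357) and 3.32-fold higher in IVO MII (log2 fold change 1.73 ± 0.23, adjusted p = 8.89e-05). TNPO3, the importer of serine- and arginine-rich splicing factors, had 269 and 178 CPM in IVM MII, 285 and 369.6 CPM in IVO MII and 92.9 and 114 CPM in GV oocytes. For TNPO3 the log2 fold change was 1.11 ± 0.26 in IVM MII (adjusted p = 0.00445) and 1.66 ± 0.27 in IVO MII (adjusted p = 0.000265). In both genes all MII libraries were above GV. TNPO2, a close relative of TNPO1, had 10.3 and 9.01 CPM in IVM MII, 10.4 and 9.95 CPM in IVO MII and 5.62 and 4.63 CPM in GV oocytes. Its MII libraries lay close together above GV. For TNPO2 the log2 fold change was 0.91 ± 0.27 in IVM MII (adjusted p = 0.0142) and 0.99 ± 0.27 in IVO MII (adjusted p = 0.00768). Both TNPO2 calls ended without GV library 2 (0.78 in IVM MII, 0.86 in IVO MII), and the IVM MII call also without IVM MII library 1 (0.85).

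KPNB1, the importin beta that pairs with importin alpha, IPO7, a carrier of ribosomal proteins, and its relative IPO8 passed in IVO MII only among the comparisons with GV. IPO7 had 16 and 15 CPM in IVM MII, 27.2 and 20.2 CPM in IVO MII and 11.4 and 8.83 CPM in GV oocytes (log2 fold change 1.23 ± 0.26, adjusted p = 0.00181 in IVO MII). IPO8 had 238 and 248 CPM in IVM MII, 359 and 278 CPM in IVO MII and 217 and 158 CPM in GV oocytes. KPNB1 had 17.2 and 16.9 CPM in IVM MII, 28.4 and 23.2 CPM in IVO MII and 16.4 and 11.8 CPM in GV oocytes. In these 3 genes the IVO MII libraries were above GV and above IVM MII, but none passed between IVM MII and IVO MII (adjusted p = 0.101 for IPO7, 0.257 for IPO8 and 0.103 for KPNB1). The IVO MII log2 fold change was 0.77 ± 0.24 for IPO8 (adjusted p = 0.0167) and 0.87 ± 0.25 for KPNB1 (adjusted p = 0.0111). Both calls ended without GV library 2 (0.56 for IPO8, 0.65 for KPNB1) and without IVO MII library 1 (0.59 for IPO8, 0.73 for KPNB1).

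In this family IPO13 was lower than in GV in IVM MII, and IPO11 in IVO MII. IPO13, a carrier that works in both directions, had 5.42 and 3.41 CPM in IVM MII, 5.64 and 7.41 CPM in IVO MII and 10.4 and 9.98 CPM in GV oocytes. Its GV libraries were the highest, and it passed in IVM MII (log2 fold change -1.20 ± 0.31, adjusted p = 0.00729) and not in IVO MII (log2 fold change -0.64 ± 0.31, adjusted p = 0.093). The call ended without IVM MII library 2 (-0.89) and with scaling by library totals (-0.88). IPO11, an importer of ubiquitin-conjugating enzymes, had 1.48 and 1.62 CPM in IVM MII, 1.00 and 0.781 CPM in IVO MII and 2.08 and 3.35 CPM in GV oocytes. It passed in IVO MII (log2 fold change -1.60 ± 0.43, adjusted p = 0.00752), though not without GV library 2 (-1.22). Both IVO MII libraries of IPO11 were below all others. IPO9, an importer of histones, had 6.11 and 4.01 CPM in IVM MII, 2.51 and 2.38 CPM in IVO MII and 4.73 and 3.92 CPM in GV oocytes. It was higher in IVM MII than in IVO MII (log2 fold change 1.05 ± 0.34, adjusted p = 0.0418). The IVM MII and GV libraries of IPO9 overlapped, both above IVO MII. The IPO9 difference did not pass without GV library 1 (1.05), GV library 2 (1.05), IVM MII library 1 (0.74), IVO MII library 1 (1.09) or IVO MII library 2 (1.02), nor with the replicate block (1.02). IPO5, an importer of ribosomal proteins and histones, did not pass and had 15.9 and 21.2 CPM in IVM MII, 16.9 and 13.1 CPM in IVO MII and 19.5 and 18.6 CPM in GV oocytes. IPO4, also a histone importer, entered the test through its GV libraries, with counts of 1 and 8 in IVM MII, 4 and 9 in IVO MII and 14 and 18 in GV oocytes, and did not pass.

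The exportins were the class in which IVM MII and IVO MII oocytes differed most often, though the class has only 5 genes. Of these, 2 (40%) were higher and 2 (40%) lower in IVM MII, beside 14.3% and 10.3% of all tested genes. Each of these calls ended with 1 library or another left out. XPO1, the main exporter of proteins with a leucine-rich export signal (macFas5 chromosome 13, 48529516 to 48590474, plus strand), had 64.5 and 64.1 CPM in IVM MII, 37.3 and 26.1 CPM in IVO MII and 66.7 and 57.6 CPM in GV oocytes. Its IVM MII libraries fell within the GV range and both IVO MII libraries were below them. XPO1 was 2.03-fold higher in IVM MII than in IVO MII (log2 fold change 1.02 ± 0.24, adjusted p = 0.00899) and lower in IVO MII than in GV (log2 fold change -0.97 ± 0.24, adjusted p = 0.00391), while IVM MII against GV gave 0.05 ± 0.23 (adjusted p = 0.873). XPO6, the exporter of actin with profilin, had 54.5 and 36.5 CPM in IVM MII, 23.4 and 28.3 CPM in IVO MII and 52.1 and 57.3 CPM in GV oocytes. IVM MII overlapped GV and IVO MII was below both, with a log2 fold change of 0.82 ± 0.25 for IVM MII over IVO MII (adjusted p = 0.0318) and -1.08 ± 0.25 for IVO MII over GV (adjusted p = 0.00283). The difference between the MII groups ended without IVO MII library 2 for XPO1 (0.80), and without IVM MII library 1 (0.53) or IVO MII library 1 (0.69) for XPO6.

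XPO4 and XPO5 were lower in IVM MII than in IVO MII. XPO4, which exports the translation factor eIF5A, had 16.7 and 21.5 CPM in IVM MII, 42.2 and 29.9 CPM in IVO MII and 15.9 and 12 CPM in GV oocytes. Its IVO MII libraries were above all others, 2.58-fold over GV (log2 fold change 1.37 ± 0.27, adjusted p = 0.00107). Here IVM MII was lower than IVO MII (log2 fold change -0.92 ± 0.27, adjusted p = 0.0265). XPO5, the exporter of microRNA precursors (macFas5 chromosome 4, 126979059 to 127036192, plus strand), had 2.55 and 3.27 CPM in IVM MII, 6.45 and 5.44 CPM in IVO MII and 9.77 and 8.22 CPM in GV oocytes. The groups did not overlap: GV was highest and IVM MII lowest, 3.10-fold below GV (log2 fold change -1.63 ± 0.30, adjusted p = 0.00101) and below IVO MII (log2 fold change -1.03 ± 0.30, adjusted p = 0.0264). XPO5 in IVO MII against GV did not pass (log2 fold change -0.60 ± 0.29, adjusted p = 0.0975). Leaving out IVM MII library 1, IVM MII library 2 or IVO MII library 1 ended the difference between the MII groups in both genes, at -0.72, -1.10 and -0.64 for XPO4 and -0.83, -1.22 and -0.90 for XPO5. XPO7, an exporter of wide cargo range, had 24.3 and 17.7 CPM in IVM MII, 30.1 and 34.7 CPM in IVO MII and 16.9 and 13.1 CPM in GV oocytes. All its MII libraries were above GV, and it passed in IVO MII (log2 fold change 1.11 ± 0.25, adjusted p = 0.00281) and not in IVM MII (log2 fold change 0.49 ± 0.25, adjusted p = 0.127).

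**Figure D4:**
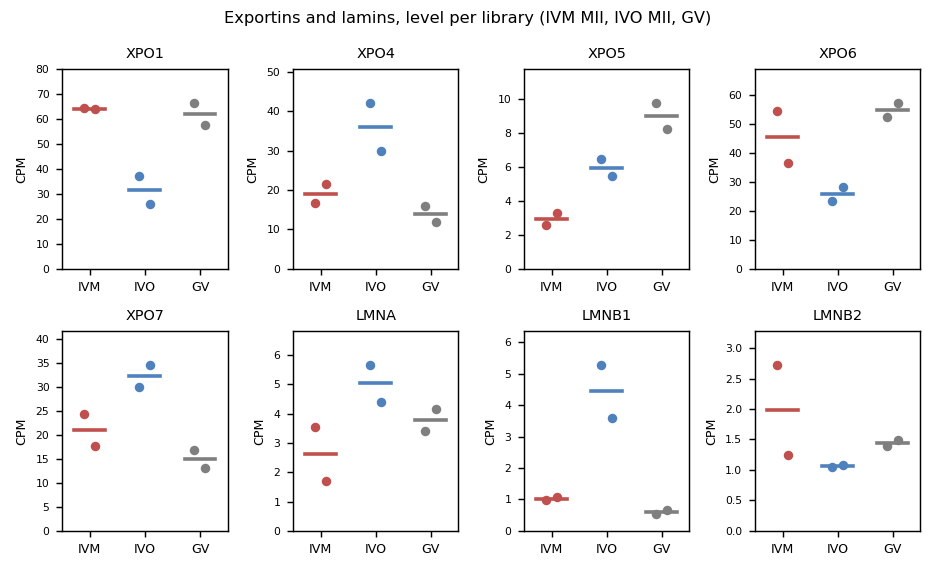
CPM (y axis, from 0, a scale of its own for each gene) of the exportin and lamin genes in each library of IVM MII, IVO MII and GV oocytes, with points for libraries and bars for means. XPO1 and XPO6 are lowest in IVO MII, XPO5 is lowest in IVM MII, and LMNB1 is highest in IVO MII.

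Lamins are the filament proteins of the lamina, and their mRNAs were low in all groups. LMNB1, a farnesylated B-type lamin (macFas5 chromosome 6, 125726581 to 125785987, plus strand), had 0.972 and 1.08 CPM in IVM MII, 5.29 and 3.60 CPM in IVO MII and 0.545 and 0.676 CPM in GV oocytes. The counts behind these values were 42 and 38 in IVM MII, 137 and 106 in IVO MII and 16 and 20 in GV oocytes. The IVO MII libraries were above all others, 7.24-fold over GV (log2 fold change 2.86 ± 0.43, adjusted p = 0.000171). LMNB1 was 4.32-fold lower in IVM MII than in IVO MII (log2 fold change -2.11 ± 0.40, adjusted p = 0.00316), and IVM MII against GV did not pass (log2 fold change 0.74 ± 0.43, adjusted p = 0.17). Both LMNB1 differences passed under every alternative that tested it. LMNA, which encodes the A-type lamins, had 3.54 and 1.70 CPM in IVM MII, 5.68 and 4.42 CPM in IVO MII and 3.41 and 4.16 CPM in GV oocytes. LMNB2, the other B-type lamin, had 2.73 and 1.25 CPM in IVM MII, 1.04 and 1.09 CPM in IVO MII and 1.40 and 1.49 CPM in GV oocytes. Neither passed in any comparison, and the IVM MII libraries overlapped GV in both genes. The ratio of LMNA to LMNB1 per kilobase was 3.13 and 1.36 in IVM MII, 0.922 and 1.05 in IVO MII and 5.37 and 5.28 in GV oocytes, so that the groups did not overlap. LMNTD1, named for a lamin tail domain, did not pass and had 2.55 and 2.13 CPM in IVM MII, 2.13 and 0.951 CPM in IVO MII and 2.93 and 2.67 CPM in GV oocytes. LMNTD2 held 0 counts in every library, which allows up to 3 counts per library, or 0.0695 to 0.116 CPM.

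Between IVM MII and IVO MII, then, the 4 genes higher in IVM MII were KPNA2, XPO1, IPO9 and XPO6, and the 7 lower ones were LMNB1, NUP188, XPO5, XPO4, NUP107, NUP160 and NUP58. The median log2 fold change of the 46 was -0.36, against 0.02 over all tested genes. Scaling by library totals moved the median of all genes by 0.218 in this comparison and left 4 of the 46 higher and 2 lower. It ended the calls of NUP107 (-0.50), NUP160 (-0.60), NUP58 (-0.55), XPO4 (-0.70) and XPO5 (-0.82). Of the 11 calls, 2 passed under every alternative that tested the gene, KPNA2 and LMNB1. Counted in the same way, 12 of 21 did for IVM MII over GV and 21 of 27 for IVO MII over GV.

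**Figure D5:**
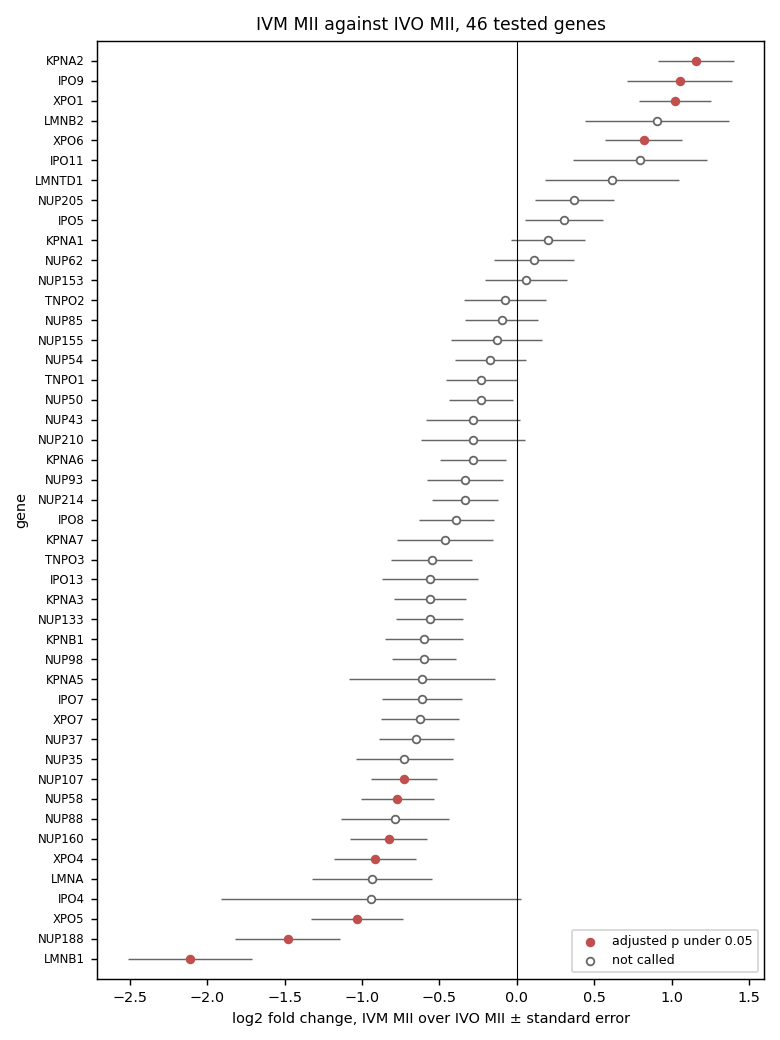
Log2 fold changes with standard errors (x axis) of IVM MII over IVO MII for the 46 tested genes (y axis, ordered by log2 fold change), with filled points for adjusted p under 0.05. KPNA2 at 1.16 and LMNB1 at -2.11 are the ends of the called range.

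Other proteins of the pore, which the naming rule did not take, were 19 tested genes. Against GV, IVM MII had 7 of them higher (36.8%) and 2 lower (10.5%), beside 25.6% and 24.7% of all tested genes. IVO MII had 10 higher (52.6%) and 5 lower (26.3%), beside 28.1% and 30.5%. Against IVO MII, IVM MII had 3 higher (15.8%) and 4 lower (21.1%), beside 14.3% and 10.3%. The median log2 fold change against GV was 0.27 in IVM MII and 0.81 in IVO MII, beside 0.06 and -0.07 over all tested genes. SEH1L, a further Y complex subunit, had 188 and 193 CPM in IVM MII, 266 and 215 CPM in IVO MII and 60.2 and 54.3 CPM in GV oocytes. Both MII groups lay far above GV (log2 fold change 1.73 ± 0.22, adjusted p = 9.79e-05 in IVM MII, log2 fold change 2.07 ± 0.22, adjusted p = 2.15e-05 in IVO MII). AHCTF1, the chromatin-binding protein that seeds new pores, had 105 and 124 CPM in IVM MII, 331 and 244 CPM in IVO MII and 121 and 77.6 CPM in GV oocytes. IVO MII was higher than GV (log2 fold change 1.53 ± 0.27, adjusted p = 0.000503), and the IVM MII and GV libraries overlapped. For AHCTF1, IVM MII was lower than IVO MII (log2 fold change -1.32 ± 0.27, adjusted p = 0.00445), a call that ended without IVM MII library 1 (-1.18). TPR, the main basket protein, had 127 and 121 CPM in IVM MII, 221 and 229 CPM in IVO MII and 72.1 and 62.5 CPM in GV oocytes, without overlap between groups. It was higher in IVM MII (log2 fold change 0.88 ± 0.21, adjusted p = 0.00473) and in IVO MII (log2 fold change 1.74 ± 0.21, adjusted p = 4.63e-05). Its difference between the MII groups (log2 fold change -0.86 ± 0.21, adjusted p = 0.0113) ended without IVM MII library 1 (-0.87), without IVM MII library 2 (-0.83) and with library totals (-0.64). NDC1, a membrane nucleoporin, had 77.4 and 87.2 CPM in IVM MII, 57 and 65.6 CPM in IVO MII and 38.2 and 29.8 CPM in GV oocytes. It was higher than in GV in IVM MII (log2 fold change 1.28 ± 0.23, adjusted p = 0.000798) and in IVO MII (log2 fold change 0.85 ± 0.22, adjusted p = 0.00644), and the IVO MII call ended without GV library 2 (0.69).

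RAE1, an mRNA export factor, had 189 and 211 CPM in IVM MII, 184 and 172 CPM in IVO MII and 446 and 440.0 CPM in GV oocytes. Both MII groups were lower than GV, with adjusted p = 0.00112 in IVM MII and 0.000311 in IVO MII. AAAS, a membrane-linked scaffold protein, had 24.9 and 16.6 CPM in IVM MII, 6.69 and 7.64 CPM in IVO MII and 27 and 32.3 CPM in GV oocytes. AAAS fell 4.13-fold in IVO MII (log2 fold change -2.05 ± 0.27, adjusted p = 8.12e-05) and was higher in IVM MII than in IVO MII (log2 fold change 1.53 ± 0.27, adjusted p = 0.00202). NUPL2, the older symbol of NUP42 at the cytoplasmic filaments, had 50.1 and 56.4 CPM in IVM MII, 15.2 and 14.4 CPM in IVO MII and 29.5 and 27.8 CPM in GV oocytes. The groups stood apart in the order IVM MII, GV, IVO MII from high to low (log2 fold change 1.85 ± 0.22, adjusted p = 0.000179 for IVM MII over IVO MII). DDX19B, the helicase that releases exported mRNA, had 2.34 and 1.88 CPM in IVM MII, 1.97 and 2.96 CPM in IVO MII and 5.55 and 7.44 CPM in GV oocytes. It was lower in IVM MII (log2 fold change -1.62 ± 0.35, adjusted p = 0.0028) and in IVO MII (log2 fold change -1.39 ± 0.35, adjusted p = 0.00525), with the IVO MII call ending without GV library 2 (-1.17).

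The Ran cycle and other transport factors were more often lower than higher against GV. In IVO MII this also held over all tested genes. Of 23 tested, IVM MII had 4 higher (17.4%) and 10 lower (43.5%) against GV, beside 25.6% and 24.7% of all tested genes. IVO MII had 6 higher (26.1%) and 9 lower (39.1%), beside 28.1% and 30.5%. Against IVO MII, IVM MII had 0 higher and 1 lower, beside 14.3% and 10.3%. The median log2 fold change against GV was -0.31 in IVM MII and -0.23 in IVO MII, beside 0.06 and -0.07 over all tested genes. RANGRF, a Ran-binding release factor, had 0.347 and 0.597 CPM in IVM MII, 0.773 and 0.645 CPM in IVO MII and 14 and 14 CPM in GV oocytes. NXT1, the partner of the mRNA exporter NXF1, had 6.81 and 6.05 CPM in IVM MII, 4.52 and 6.08 CPM in IVO MII and 40.6 and 88.6 CPM in GV oocytes. Both were far lower in IVM MII (adjusted p = 3.38e-06 for RANGRF, 2.88e-05 for NXT1) and in IVO MII (adjusted p = 4.32e-06 for RANGRF, 1.34e-05 for NXT1). RCC1, the chromatin-bound exchange factor that loads Ran with GTP, had 5.51 and 5.54 CPM in IVM MII, 7.81 and 16.1 CPM in IVO MII and 2.01 and 1.69 CPM in GV oocytes. It was higher in IVM MII (log2 fold change 1.58 ± 0.37, adjusted p = 0.00427) and in IVO MII (log2 fold change 2.69 ± 0.38, adjusted p = 0.000108). RCC1 was also the gene lower in IVM MII than in IVO MII (log2 fold change -1.11 ± 0.35, adjusted p = 0.0359), a call that ended without IVM MII library 1 (-1.08), IVM MII library 2 (-1.12) or IVO MII library 2 (-0.49). THOC2, a subunit of the complex that couples transcription to mRNA export, had 123 and 151 CPM in IVM MII, 209 and 151 CPM in IVO MII and 63.7 and 59.3 CPM in GV oocytes. It was above GV in both MII groups (adjusted p = 0.00195 in IVM MII, 0.000206 in IVO MII).

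Partners of the lamina and envelope were 31 tested genes. IVM MII had 8 of them higher (25.8%) and 2 lower (6.45%) against GV, beside 25.6% and 24.7% of all tested genes. IVO MII had 9 higher and 9 lower (29.0% each), beside 28.1% and 30.5%. IVM MII against IVO MII had 7 higher (22.6%) and 4 lower (12.9%), beside 14.3% and 10.3%. Against GV the median log2 fold change was 0.23 in IVM MII and -0.08 in IVO MII, beside 0.06 and -0.07 over all tested genes. NEMP1, an inner membrane protein, had 70.6 and 65.8 CPM in IVM MII, 108 and 97.5 CPM in IVO MII and 19 and 15.3 CPM in GV oocytes. SUN1, which joins the lamina to the cytoskeleton through nesprins, had 516 and 440.1 CPM in IVM MII, 521 and 564 CPM in IVO MII and 149 and 152 CPM in GV oocytes. Both were higher in IVM MII (adjusted p = 4.04e-05 for NEMP1, 0.000144 for SUN1) and in IVO MII (adjusted p = 5.12e-06 for NEMP1, 4.68e-05 for SUN1). SYNE1 and SYNE2, nesprins that reach from the envelope to the cytoskeleton, were lower in IVM MII than in IVO MII, and the nesprins SYNE3 and SYNE4 held 0 counts in every library. SYNE2 had 37.3 and 35.1 CPM in IVM MII, 120.4 and 81.1 CPM in IVO MII and 27.8 and 19.8 CPM in GV oocytes (log2 fold change -1.48 ± 0.26, adjusted p = 0.00198 for IVM MII over IVO MII). SYNE1 had 140.0 and 136 CPM in IVM MII, 498 and 291 CPM in IVO MII and 204 and 134 CPM in GV oocytes (log2 fold change -1.52 ± 0.30, adjusted p = 0.00356 for the same difference). The IVO MII libraries were the highest in both genes, and IVM MII did not pass against GV in either (adjusted p = 0.0686 for SYNE2, 0.42 for SYNE1).

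BANF1, which ties chromatin to the envelope, and VRK1, the kinase that releases it, were higher in IVM MII than in IVO MII. BANF1 had 91.5 and 106 CPM in IVM MII, 25.5 and 30.7 CPM in IVO MII and 157 and 127 CPM in GV oocytes. IVO MII lay below IVM MII (log2 fold change 1.81 ± 0.23, adjusted p = 0.000266 for IVM MII over IVO MII) and below GV (log2 fold change -2.34 ± 0.23, adjusted p = 1.2e-05 for IVO MII over GV). VRK1 had 192 and 259 CPM in IVM MII, 72.9 and 87.4 CPM in IVO MII and 133 and 123 CPM in GV oocytes. The difference between the MII groups was called (log2 fold change 1.49 ± 0.23, adjusted p = 0.000993). The IVM MII libraries of VRK1 were above GV and the IVO MII libraries below it. The calls of VRK1 against GV ended without GV library 2 (0.77 in IVM MII, -0.72 in IVO MII), in IVM MII also without IVM MII library 2 (0.61), and in IVO MII also without GV library 1 (-0.61) or IVO MII library 1 (-0.53). TMEM43, an inner membrane protein, had 16.4 and 12.3 CPM in IVM MII, 4.99 and 7.92 CPM in IVO MII and 20.7 and 23.6 CPM in GV oocytes. Its IVM MII libraries were above IVO MII (log2 fold change 1.15 ± 0.29, adjusted p = 0.0143), a call that ended without IVM MII library 1 (0.95) or IVO MII library 1 (0.86). TOR1A, an ATPase of the envelope lumen, and ICMT, which methylates prenylated lamins, were lower in IVM MII (adjusted p = 0.000998 for TOR1A, 0.00226 for ICMT) and in IVO MII (adjusted p = 0.00529 for TOR1A, 0.0022 for ICMT), the TOR1A call in IVO MII ending without IVO MII library 1 (-0.69).

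Some markers of cells that surround the oocyte were measured in all groups. The table held 17 cumulus and granulosa markers, of which 7 could be tested. Their sum was 357 and 219 CPM in IVM MII, 264 and 329 CPM in IVO MII and 269 and 239 CPM in GV oocytes, with FOXL2, INHA, STAR, PTX3 and NR5A1 at 0 in every library. SERPINE2 held most of that sum, with 268 and 133 CPM in IVM MII, 227 and 275 CPM in IVO MII and 229 and 205 CPM in GV oocytes, and did not pass in any comparison. In IVM MII, 3 of the 7 were above GV and 3 above IVO MII, beside 25.6% and 14.3% of all tested genes. IVO MII against GV had 1 higher and 1 lower, beside 28.1% and 30.5%. GREM1 had 32.8 and 25.3 CPM in IVM MII, 4.83 and 3.19 CPM in IVO MII and 5.11 and 2.84 CPM in GV oocytes. RUNX2 had 8.03 and 7.13 CPM in IVM MII, 1.89 and 1.94 CPM in IVO MII and 1.57 and 2.44 CPM in GV oocytes, and both genes were higher in IVM MII than in the other groups. HAS2 was higher in both MII groups than in GV, at 20.3 and 17.1 CPM in IVM MII, 12.7 and 31.6 CPM in IVO MII and 5.07 and 4.90 CPM in GV oocytes. TNFAIP6 was lower in IVO MII than in both other groups. It had 23.7 and 32.2 CPM in IVM MII, 13.4 and 13.9 CPM in IVO MII and 24.5 and 19.4 CPM in GV oocytes. Its IVO MII call against GV ended without GV library 1 (-0.50), IVO MII library 1 (-0.65) or IVO MII library 2 (-0.70). That call also ended with library totals (-0.61) and with the trend on exon length removed (-0.02). The TNFAIP6 call for IVM MII over IVO MII ended without IVM MII library 2 (0.80). Markers of theca, stroma, endothelium and blood summed to 164 and 156 CPM in IVM MII, 95.9 and 90.9 CPM in IVO MII and 332 and 390.2 CPM in GV oocytes, with VWF the largest part in every library and LUM, KDR, HBB and CD3E at 0. Of the 6 tested, 1 was higher and 1 lower in IVM MII against GV, beside 25.6% and 24.7% of all tested genes. In IVO MII against GV 2 were higher and 1 lower, beside 28.1% and 30.5%. Between IVM MII and IVO MII 1 was higher and 1 lower, beside 14.3% and 10.3%. VWF had 105 and 102 CPM in IVM MII, 41.8 and 46 CPM in IVO MII and 288 and 337 CPM in GV oocytes. CDH5 had 34.3 and 28.4 CPM in IVM MII, 26.7 and 22.8 CPM in IVO MII and 26.2 and 39.4 CPM in GV oocytes. It did not pass in any comparison. OGN had 3.87 and 4.12 CPM in IVM MII, 8.50 and 6.96 CPM in IVO MII and 4.43 and 3.82 CPM in GV oocytes. OGN was called higher in IVO MII than in both other groups. The OGN call over GV ended without GV library 1 (1.02), GV library 2 (0.81) or IVO MII library 1 (0.77). For IVM MII over IVO MII it ended without GV library 1 (-0.95), GV library 2 (-0.95), IVM MII library 1 (-0.88), IVM MII library 2 (-0.99) or IVO MII library 1 (-0.80). That call also ended with library totals (-0.73) and with only the compared libraries fitted (-0.92). PECAM1, an endothelial gene, was higher than in GV in IVM MII (log2 fold change 1.06) and in IVO MII (0.74), calls that ended without GV library 2 (0.81 in IVM MII, 0.49 in IVO MII), the IVO MII one also without IVO MII library 1 (0.55). The part of such cells in the results above was not tested.

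Features of the genes themselves also stand beside these values. The tested genes of the rule were long, with a median exon length of 5135.5 bases against 2974 bases over all tested genes. With the trend of fold change on length removed, IVM MII against GV had 14 higher and 7 lower, IVO MII against GV 23 and 7, and IVM MII against IVO MII 4 and 8. The median log2 fold change of the tested genes of the rule against GV went from 0.45 to 0.23 in IVM MII. In IVO MII it went from 0.74 to 0.56. Over all tested genes the medians with the trend removed were 0.11 in IVM MII and 0.06 in IVO MII. That removal ended the IVM MII calls against GV of NUP214 (0.29), NUP58 (0.51) and TNPO2 (0.66), and the IVO MII calls of IPO8 (0.49), KPNA6 (0.44) and NUP205 (0.45). Exons shared with another gene made up 14.3% of the length of IPO11, 8.02% of IPO9, 6.00% of NUP58, 5.51% of IPO4 and less in the other tested genes, and the counting command sets no option to count a fragment that overlaps more than 1 gene. The part of length and overlap in single calls was not otherwise tested.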

How the data were processed

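RNA of stripped monkey oocytes was reverse transcribed from the poly(A) tail with template switching, amplified by PCR and tagmented, per the labels' protocols. The authors deposited whole-number fragment counts per gene, made with featureCounts 2.0.1 on the macFas5 RefSeq annotation, summed over exons without strand or multi-mapping options, per the file headers. The submitters' processing notes name fastp, FastQC, Bowtie2 and SAMtools, without versions. Because Bowtie2 aligns without gaps for introns, fragments across exon junctions may be under-represented.

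Counts of all 6 libraries were fitted together with edgeR 4.0.16 (filterByExpr, TMM factors, robust quasi-likelihood test, Benjamini-Hochberg adjustment over 15815 genes) in R 4.3.3, and the same steps were tested on simulated counts. Across genes the biological coefficient of variation came to 0.232, on 3 residual degrees of freedom. Standard errors are the log2 fold change over the root of F. Alternatives used DESeq2 1.42.0, limma-voom (limma 3.58.1), other scalings, filters and sample sets, a replicate block and removal of the trend on exon length. A count of 0 allows up to 3 counts, and such limits cover counting error only. No per-sample column was left unused. Figures were drawn with matplotlib 3.10.9.

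All importin alpha and lamin genes were named. In other classes up to 3 genes per direction and comparison, by adjusted p, were given in full, and in other pathway and marker lists up to 2 genes per direction. The genes, classes and lists were chosen with earlier results of these data known.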

Additional observations from a re-analysis of the deposited data

Results flagged for a closer look

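For 6 genes, among those of the naming rule and the 3 pathway lists, the IVM MII and IVO MII groups had log2 fold changes of opposite sign against GV, at least 1 of them called, and the direct difference between the MII groups passed edgeR's test. IPO9 (0.23 in IVM MII, -0.82 in IVO MII), LEMD2 and TMEM201 also had opposite signs and a called direct difference, with neither side called against GV. The GV libraries are shared by both sides. XPO1, the main protein exporter, gave a log2 fold change of 1.02 for IVM MII over IVO MII, with a value near 0 against GV in IVM MII (0.05) and a lower level in IVO MII. NUPL2 gave 1.85, FNTA, the shared subunit of the enzymes that prenylate lamins and other proteins, gave 1.52, VRK1 gave 1.49 and LEMD3, an inner membrane protein, gave 1.22. SYNE1, a nesprin, gave -1.52. FNTA had 18.5 and 15.5 CPM in IVM MII, 5.99 and 5.84 CPM in IVO MII and 14.8 and 15.8 CPM in GV oocytes, and LEMD3 averaged 10.1 CPM in IVM MII, 4.33 CPM in IVO MII and 5.01 CPM in GV oocytes. In NUPL2 and VRK1 both sides passed against GV, and in the other genes 1 side did: FNTA, XPO1 and SYNE1 in IVO MII, and LEMD3 in IVM MII. Against IVO MII, the LEMD3 difference ended without IVO MII library 1 (1.06), and its IVM MII call against GV ended without GV library 2 (0.89). With the trend on exon length removed, the IVO MII call of NUPL2 against GV ended at -0.51.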

How the results depend on the processing

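No call among the 46 tested genes reversed under any alternative. The count of genes higher in IVM MII than in GV, 16 in the report, was 10 when genes needed 10 CPM in 2 libraries, which left 34 of the 49 genes tested, and 9 to 17 with a library left out. Against IVO MII, the count higher in IVM MII, 4 in the report, was 2 to 4 with a library left out, and the count lower, 7 in the report, was 1 to 7. DESeq2 called 12 lower in IVM MII than in IVO MII, and library totals 2. The share of higher among the 11 calls of that comparison, 36.4%, became 66.7% with library totals and 20.0% with DESeq2. Library totals moved the median of all genes by 0.294 in IVM MII over GV and 0.218 in IVM MII over IVO MII. The 10 CPM filter moved the median of the genes it kept by -0.277 in IVM MII and -0.332 in IVO MII against GV. Under that filter the median of the genes of the rule was 0.24 in IVM MII and 0.46 in IVO MII. Over all kept genes the medians were 0.10 and 0.04.

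With the replicate block, IVM MII against GV had 15 higher and 5 lower, IVO MII against GV 22 and 5, and IVM MII against IVO MII 3 and 7. It ended the calls of NUP62 and IPO9. Further settings ended calls as well (log2 fold changes in parentheses). The 10 CPM filter ended NUP62 (0.42), NUP58 (0.43), NUP214 (0.33) and KPNA3 (0.47) in IVM MII over GV, and IPO8 (0.43), KPNA6 (0.49), KPNB1 (0.54) and NUP205 (0.40) in IVO MII over GV. Fitting only the compared libraries ended NUP62 (0.61) and NUP214 (0.52) in IVM MII over GV, and IPO9 (1.09) and XPO5 (-1.0) in IVM MII over IVO MII. RLE factors ended NUP62 (0.64) and IPO9 (0.98), limma-voom NUP62 (0.66) and DESeq2 IPO9 (0.99). The libraries share a number only: deviations of same-numbered libraries correlated at -0.144 to 0.178.

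Over all tested genes, counts of higher genes were 4053 in IVM MII over GV, with 2268 under the 10 CPM filter and 2580 without GV library 2, 4442 in IVO MII over GV, with 2727 under that filter, and 2260 in IVM MII over IVO MII, with 1327 without IVM MII library 2. Lower genes were 3908 (2352 under the filter), 4816 (2859) and 1635 (1051) in the same comparisons, and the last was 894 with library totals, 895 without IVM MII library 1 and 753 without IVM MII library 2. With library totals, 63.7% of calls were higher in IVM MII over GV, against 50.9%, and 75.8% in IVM MII over IVO MII, against 58.0%.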
